A study of Rattus norvegicus with 6 samples.

Results

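The microRNAs (miRNAs) rno-miR-126a-5p, rno-miR-126a-3p, rno-miR-221-5p, rno-miR-221-3p and rno-miR-222-3p, written below without the rat prefix, were followed in small extracellular vesicles of rat plasma. They were chosen by name, as 5 of the 764 mature miRNAs in the deposited count table, and all 5 had enough counts to be among the 362 miRNAs tested. Such vesicles are particles enclosed by a membrane and shed into blood by many cell types. The 3 diabetic libraries are of rats injected with streptozotocin, which destroys pancreatic beta cells, at 65 mg/kg into the peritoneum, classed as diabetic by a fasting glucose above 11.1 mmol/L, and were taken at 8 weeks of diabetes. The 3 control libraries came from rats labelled control, and the labels name no vehicle for them. All rats were wild-type male Sprague-Dawley animals, an outbred strain, aged 6 to 8 weeks when obtained and kept on chow. Each preparation used 2 ml of plasma, and RNA of 18 to 30 nucleotides was sequenced. Library totals ran from 6254077 to 8930730 miRNA counts.

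miRNAs are cut as a pair of arms (5p and 3p) from a hairpin. Usually the more abundant arm is loaded into the silencing complex, where its seed, the bases near its 5′ end, pairs with messenger RNAs and represses them. miR-126 is encoded within Egfl7, a gene of endothelial cells, and is among the most abundant miRNAs of endothelium. There its 3p arm represses Spred1 and Pik3r2, which restrain signalling from the vascular growth factor receptor, and its 5p arm represses Dlk1. These roles are known from mouse and human cells. miR-221 and miR-222 are made from neighbouring hairpins and share targets such as the stem cell factor receptor Kit and the cell cycle inhibitor Cdkn1b. They restrain angiogenesis in endothelium and promote growth in vascular smooth muscle. None of these miRNAs is restricted to endothelium: platelets also carry miR-126 and miR-221 and miR-222. The count table holds only miRNAs, so an endothelial source of these vesicles could not be checked against endothelial messenger RNAs or proteins.

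The mature sequences are shown because the grouping and the read assignment of these miRNAs depend on them. They are RefSeq's on build GRCr8, whereas the counts were made with rn6 according to the submitters' processing notes. Capitals mark the seed, bases 2 to 8, and all 5 names were matched.
miR-126a-5p: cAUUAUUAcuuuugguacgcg
miR-126a-3p: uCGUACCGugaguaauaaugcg
miR-221-5p: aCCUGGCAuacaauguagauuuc
miR-221-3p: aGCUACAUugucugcuggguuuc
miR-222-3p: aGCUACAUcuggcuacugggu
miR-126b: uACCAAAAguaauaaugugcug

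miR-221-3p and miR-222-3p have the same seed and the same first 8 bases. Of the 21 positions that can be compared without gaps, 11 are identical, so the sequences separate after the seed. Among listed miRNAs with a RefSeq sequence, which were 689 of 764, no other one has the seed GCUACAU, and none shares the seed of miR-126a-5p, miR-126a-3p or miR-221-5p. In GRCr8 the miR-126a arms lie on the plus strand of chromosome 3 at 29813182 to 29813202 (5p) and 29813219 to 29813240 (3p), inside the annotated span of Egfl7. The miR-222 hairpin (X, 6022621 to 6022723, plus strand) and the miR-221 hairpin (X, 6023182 to 6023290, plus strand) are separated by 458 bases. miR-126b, shown for comparison and not a member, lies on the opposite strand of the miR-126a locus, and 17 bases of miR-126a-5p match its reverse complement. It had 0 counts in all 6 libraries, which allows up to 0.336 to 0.48 CPM (counts rescaled so that each library sums to 1e+06) per library, for counting error only, and no count at this locus was assigned to the strand opposite miR-126a.

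In TMM-normalized levels the miR-126a arms stood higher in diabetic libraries and miR-222-3p lower, each with no overlap between the groups. Of all tested miRNAs, 13.3% were separated in this way with the diabetic libraries higher and 14.6% with them lower. On the same scale miR-221-3p and miR-221-5p overlapped. On plain CPM, which scales by library size alone, the miR-126a arms, miR-221-3p and miR-221-5p all separated the groups with the diabetic libraries higher, as did 32.6% of all tested miRNAs, and miR-222-3p overlapped. None of the 5 passed the test across all miRNAs. Levels are given as normalized CPM, counts divided by a library size that was scaled by the trimmed mean of M values (TMM). They are relative levels within the sequenced miRNAs, so more vesicles of a source and more of a miRNA per vesicle cannot be told apart. Differences were tested with the quasi-likelihood F-test of edgeR, and p-values were adjusted by the method of Benjamini and Hochberg over the 362 miRNAs, with a threshold of 0.05.

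miR-126a-3p, the main arm of its hairpin, had 7756, 9771 and 6324 normalized CPM in diabetic replicates 1, 2 and 3, and 4668, 4089 and 5111 in control replicates 1, 2 and 3. The lowest diabetic library lay above the highest control, and the diabetic libraries were the more scattered. Means were 7950 ± 1732 in diabetic and 4623 ± 512 in control libraries (SD, n = 3 each), a 1.72-fold difference (log2 fold change 0.78, SE 0.33, 95% interval 0.04 to 1.52). Its adjusted p (edgeR) was 0.197.

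miR-126a-5p, the other arm, had 198, 153 and 121 normalized CPM in the diabetic and 73.8, 59.4 and 74.5 in the control replicates. The groups were again fully separated, and here diabetic replicate 1 was the highest, whereas diabetic replicate 2 was the highest for the 3p arm. The 2.27-fold difference (log2 fold change 1.19, SE 0.35, 95% interval 0.41 to 1.96) had an adjusted p (edgeR) of 0.098. It passed the threshold without diabetic replicate 3, the lowest diabetic library, where the log2 fold change was 1.39, the adjusted p 0.0486 and 5.8% of all miRNAs were called. It also passed with DESeq2 (1.15, adjusted p 0.0137), which called 11.6% of all miRNAs.

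**Figure D1:**
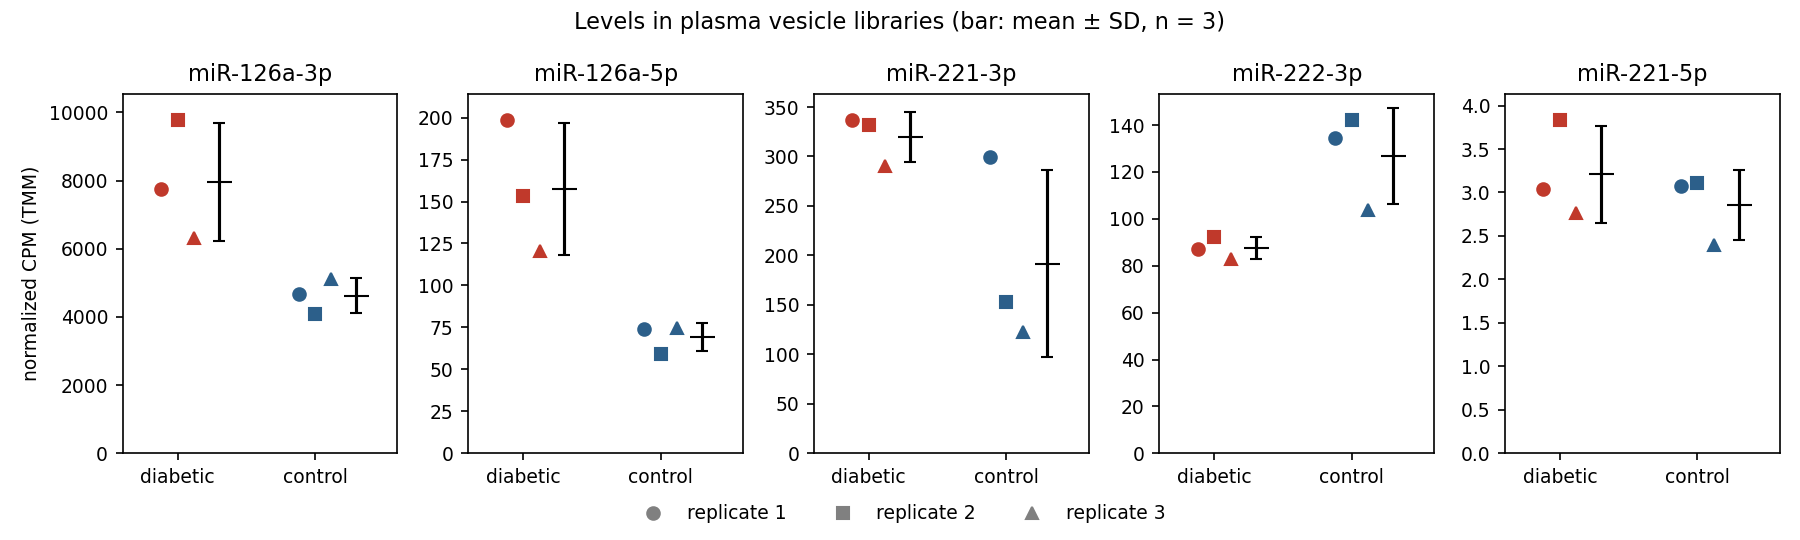
Normalized CPM (TMM, vertical axes from 0) of the 5 miRNAs in each library, diabetic left and control right, with marker shapes for replicate numbers and bars for mean ± SD (n = 3). Both miR-126a arms separate the groups upward and miR-222-3p downward, while control replicate 1 of miR-221-3p, at 299.7, lies among the diabetic libraries.

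miR-221-3p, the main arm of miR-221, had 337, 332 and 291 normalized CPM in the diabetic and 299.7, 153 and 123 in the control replicates. The diabetic libraries were close to each other, with a coefficient of variation of 7.94%, against 49.3% among the controls. Control replicate 1 lay inside the diabetic range. On plain CPM it lay below all diabetic libraries, with 429, 422 and 326 CPM in the diabetic and 240.4, 149.7 and 86.1 CPM in the control replicates. The log2 fold change was 0.74 (SE 0.40, 95% interval -0.14 to 1.61, adjusted p 0.269, edgeR). Without control replicate 1 it was 1.19, and the adjusted p of 0.0368 passed the threshold, in a fit that called 13% of all miRNAs. Control replicate 1 also had the highest mean log2 normalized CPM of the 6 libraries over the platelet list without these members (8.88, against 8.49 to 8.76 in diabetic and 8.15 and 8.35 in the other control libraries) over the leukocyte list (9.22, against 8.91 to 9.05 and 8.52 and 8.54, in the same order) and over the erythrocyte list (7.13, against 6.61 to 6.82 and 6.95 and 6.95). Over the endothelium-associated list without the members it was the highest control, at 6.34, against 6.12 to 6.35 in diabetic and 5.96 and 5.99 in the other control libraries. Over the smooth muscle and fibroblast list it was also the highest control, at 7.40. There the diabetic libraries had 7.09 to 8.35 and the other control libraries 7.03 and 6.81. Control replicate 1 was the lowest of the 6 libraries over the liver list, at 6.54, and over the heart and skeletal muscle list, at 4.61. The platelet and leukocyte lists share both arms of miR-223, so they are not separate observations. The part of these lists in the miR-221-3p result was not tested.

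miR-222-3p, which has the same seed as miR-221-3p, had 87, 92.4 and 83 normalized CPM in the diabetic and 135, 142 and 104 in the control replicates. Every diabetic library lay below every control library. The log2 fold change was -0.54 (SE 0.33, 95% interval -1.26 to 0.19), and the adjusted p (edgeR) was 0.32. On plain CPM the groups overlapped, with 111, 117 and 93.1 CPM in the diabetic and 108, 139 and 72.8 CPM in the control replicates, and the log2 fold change with library size only was 0.0071.

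miR-221-5p, the minor arm of miR-221, was sparse, with 29, 37 and 26 counts in the diabetic and 22, 19 and 11 counts in the control replicates. In CPM these were 3.87, 4.87 and 3.09 in diabetic libraries, against 2.46, 3.04 and 1.68 in control libraries, separated by a narrow margin. The 95% Wilson interval of a single library, for counting error only, ran for example from 2.11 to 4.53 CPM in diabetic replicate 3 and from 0.939 to 3.01 CPM in control replicate 3, so that neighbouring libraries could not be told apart. In normalized CPM the groups overlapped, and the log2 fold change was 0.16 (SE 0.48, 95% interval -0.90 to 1.22, adjusted p 0.871, edgeR). The other arm of miR-222, miR-222-5p, is not a member and was not tested for low counts: it had 3, 15 and 4 counts in diabetic and 1, 2 and 0 counts in control replicates.

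Over the 362 miRNAs, 1.66% passed the adjusted threshold in either direction (0.552% higher), against 0 of the 5 members in the quasi-likelihood test of edgeR. DESeq2 called 1 of the 5 (11.6% of all), the exact test of edgeR 0 (7.46% of all) and limma-voom 0 (1.1% of all). At an unadjusted p under 0.05 there were 2 members, the miR-126a arms, where 22.7% of all miRNAs were. Groups did not overlap for 2 members higher in diabetic libraries, against 13.3% of all miRNAs, and for 1 member lower, against 14.6%. The median log2 fold change of all 362 was 0.019, and 50.6% lay above 0, as did 4 of the 5 members.

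How the libraries were scaled set the size of these values. TMM factors were 1.12 to 1.27 in diabetic and 0.702 to 0.978 in control libraries. With library size only, the median of all miRNAs moved to 0.61. The miR-126a arms then passed the threshold, miR-126a-5p at a log2 fold change of 1.78 (adjusted p 0.027) and miR-126a-3p at 1.38 (adjusted p 0.0355, edgeR), 2 of 5 members, where 13.5% of all miRNAs were called in either direction and 12.4% higher. miR-221-3p stood at 1.30 (adjusted p 0.059). The authors' deposited log2 fold changes are log2 ratios of mean plain CPM. For miR-126a-5p, miR-126a-3p, miR-221-3p, miR-221-5p and miR-222-3p they were 1.78, 1.38, 1.31, 0.72 and 0.0071. The deposited false discovery rates were, in the same order, 0.00637, 0.0384, 0.0649, 0.529 and 1. The test and the scaling behind those rates were not established. A change of scaling shifts all miRNAs by about the same amount, so a value relative to the median of all miRNAs is free of it by construction and says nothing of stability. Over the 5 scalings tried, miR-126a-5p lay 1.14 to 1.17 above the median on the log2 scale, miR-126a-3p 0.75 to 0.77 above and miR-221-3p 0.70 to 0.74 above. miR-221-5p lay 0.11 to 0.14 above it, and miR-222-3p stood at -0.60 to -0.56 relative to it.

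**Figure D2:**
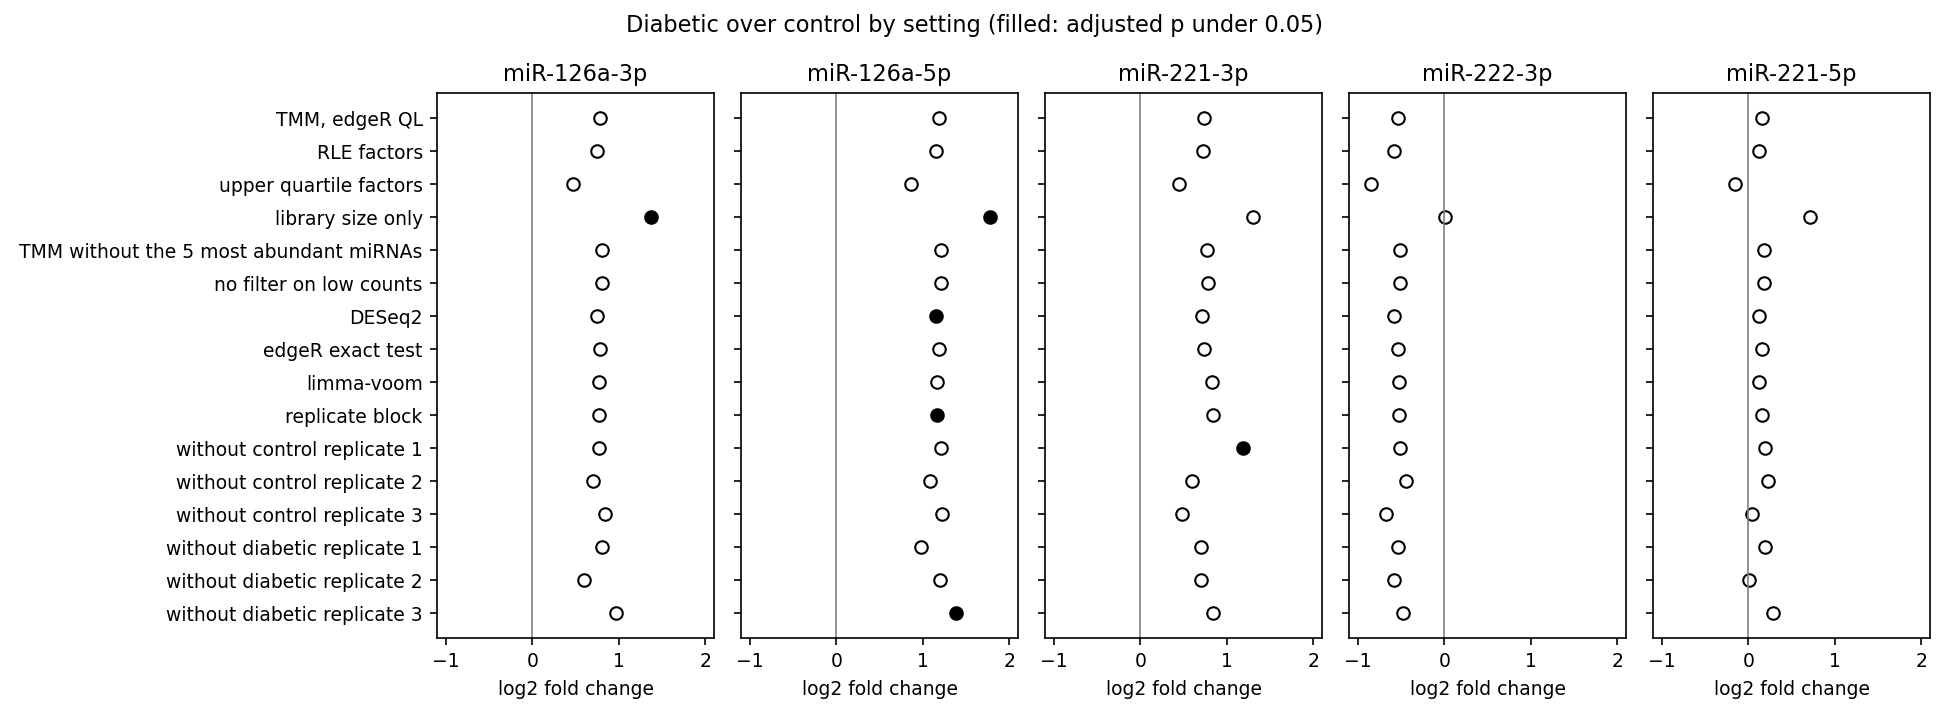
Log2 fold changes, diabetic over control (horizontal axes), of the 5 miRNAs under the 16 scalings, tests and left-out libraries named on the left, with filled points for an adjusted p under 0.05. miR-126a-5p passes the threshold with library size only, DESeq2, the replicate block and without diabetic replicate 3, miR-126a-3p with library size only, and miR-221-3p without control replicate 1, and miR-222-3p and miR-221-5p pass it nowhere.

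Ratios of counts within a library do not depend on that scaling. The 4 ratios tested were chosen with earlier results of these data known. Each was tested on the log2 scale by exact permutation of the libraries, two-sided, with p-values adjusted over the 4. The smallest p that this test can give with 3 libraries against 3 is 0.1. The largest difference was between the seed-sharing pair. miR-222-3p had 0.258, 0.278 and 0.286 counts for each count of miR-221-3p in diabetic replicates 1, 2 and 3, and 0.449, 0.928 and 0.845 in control replicates 1, 2 and 3. All 3 diabetic libraries lay below all 3 controls and were nearly equal to each other, and control replicate 1 was the nearest to them. The mean log2 ratio was -1.87 ± 0.07 in diabetic and -0.50 ± 0.57 in control libraries (SD, n = 3 each), a difference of -1.37 or a ratio 2.58-fold lower (exact permutation p = 0.1, adjusted p = 0.267). The difference was -1.17 to -1.69 when single libraries were left out. Separation of this kind was not rare: of 116 tested pairs of miRNAs that share bases 2 to 8, a background chosen after these values were seen, 25.9% had ratios that did not overlap between the groups.

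The 5p arm of miR-126a made up 2.56%, 1.57% and 1.91% of the 3p count in diabetic replicates and 1.58%, 1.45% and 1.46% in control replicates. Diabetic replicate 2 lay within the control range, and the log2 difference of 0.40 had an exact permutation p of 0.2 (adjusted p 0.267). The 5p arm of miR-221 made up 0.903%, 1.15% and 0.949% of its 3p count in diabetic replicates and 1.02%, 2.03% and 1.95% in control replicates, a log2 difference of -0.70 (exact permutation p = 0.2, adjusted p = 0.267), with control replicate 1 among the diabetic libraries. Both hairpins were thus read almost entirely from the 3p arm in either group. Of the 95 hairpins with both arms tested, the arm ratio separated the groups for 37.9%, a background likewise chosen after the values were seen, and for neither of these hairpins.

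The miR-126a arms together outnumbered the 3 forms of miR-221 and miR-222 in every library, by 18.6, 23.2 and 17.1 times in diabetic and 10.8, 13.9 and 22.7 times in control replicates 1, 2 and 3. The groups overlapped, and the log2 difference of 0.37 had an exact permutation p of 0.3 (adjusted p 0.3).

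**Figure D3:**
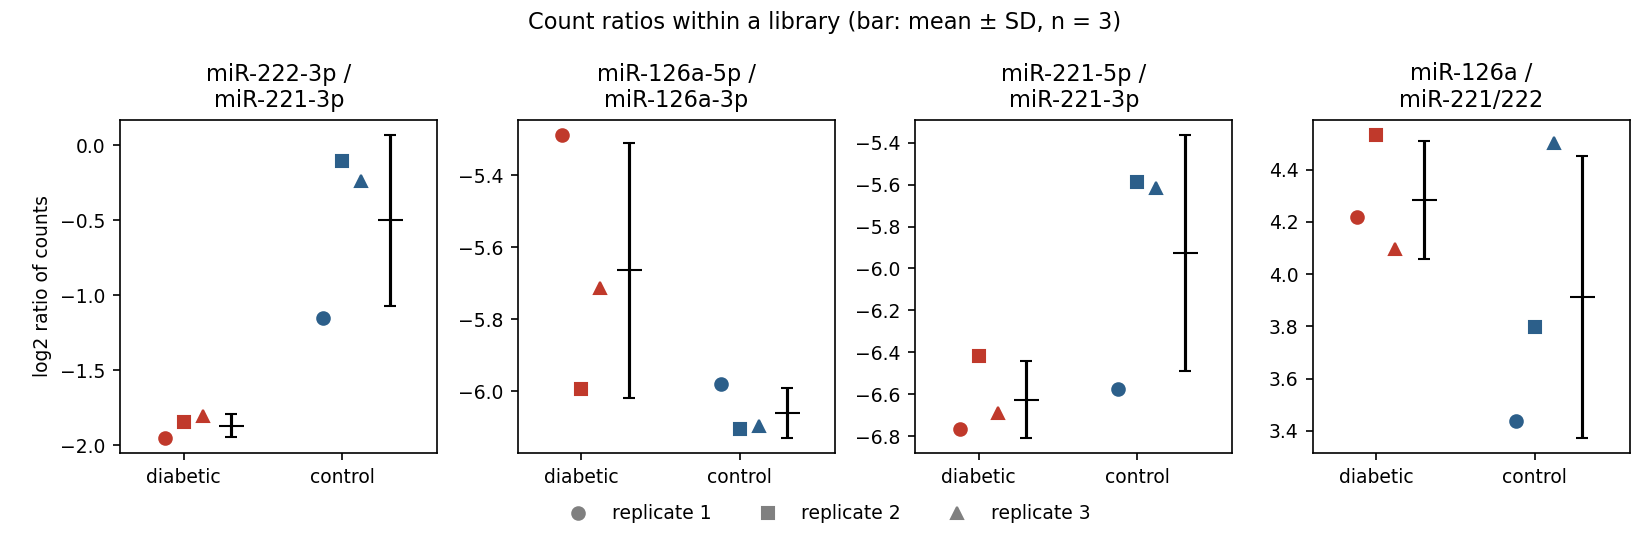
Log2 ratios of counts within each library (vertical axes, a separate scale in each panel), diabetic left and control right, with bars for mean ± SD (n = 3). The miR-222-3p to miR-221-3p ratio separates the groups, at -1.87 ± 0.07 in diabetic and -0.50 ± 0.57 in control libraries, and the other 3 ratios overlap.

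The order of the levels differed between the groups in 1 place. In all 3 diabetic libraries the order of counts was miR-126a-3p, miR-221-3p, miR-126a-5p, miR-222-3p and miR-221-5p. In all 3 control libraries miR-222-3p stood above miR-126a-5p. This swap restates the levels given above for miR-126a-5p and miR-222-3p and was not tested. In diabetic libraries no neighbours in this order overlapped in normalized CPM, whereas in control libraries the ranges of miR-221-3p (123 to 299.7) and miR-222-3p (104 to 142) did. miR-126a-3p was the 19th, 20th and 26th most abundant of the 764 miRNAs in diabetic replicates 1, 2 and 3 and the 29th, 27th and 28th in control replicates. The 5 miRNAs together held 1.05% ± 0.276 of miRNA counts in diabetic libraries and 0.41% ± 0.0278 in control libraries (SD, n = 3 each). miR-126a-3p alone made up 90.1% to 94.4% of that sum, so the sum mostly restates this miRNA. On plain CPM 32.6% of all tested miRNAs were separated with the diabetic libraries higher. In normalized CPM the sum was 8518 ± 1770 in diabetic and 5013 ± 505 in control libraries (SD, n = 3 each). Adaptor ligation favours some sequences over others, so that an order between miRNAs is an order of reads.

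The other miRNAs linked to endothelium did not share 1 direction. The list, which includes miRNAs of vessel growth and inflammation that other cells also express, had 60 entries beside the members, of which 39 were tested. Of these, 19 lay above 0 and 20 below, with a median log2 fold change of -0.06, against 0.019 over all tested miRNAs. With library size only, 31 lay above 0 and the median was 0.52, against 0.61 over all. miR-100-5p, a repressor of mTOR, rose to 2355 ± 778 normalized CPM in diabetic libraries, against 641 ± 20.8 in control libraries (SD, n = 3 each; log2 fold change 1.88, adjusted p 0.0418, edgeR), and was the 1 call. Over all miRNAs there were 0 calls by edgeR without control replicate 2 or 3 or diabetic replicate 1 or 2, with 57 to 59 at an unadjusted p under 0.05. The next smallest p-values were those of miR-217-5p, a miRNA of ageing endothelium and of pancreatic acinar cells, at 2.91 (adjusted p 0.0647), and miR-132-5p, the minor arm of a miRNA induced by vascular growth factor, at -1.91 (adjusted p 0.112, edgeR). Both were sparse, at 19.4 ± 16.9 and 1.86 ± 1.01 normalized CPM in diabetic and 2.57 ± 0.75 and 7.08 ± 4.43 in control libraries (SD). The other arm, miR-132-3p, lay at a log2 fold change of 0.41 (adjusted p 0.552, edgeR).

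**Figure D4:**
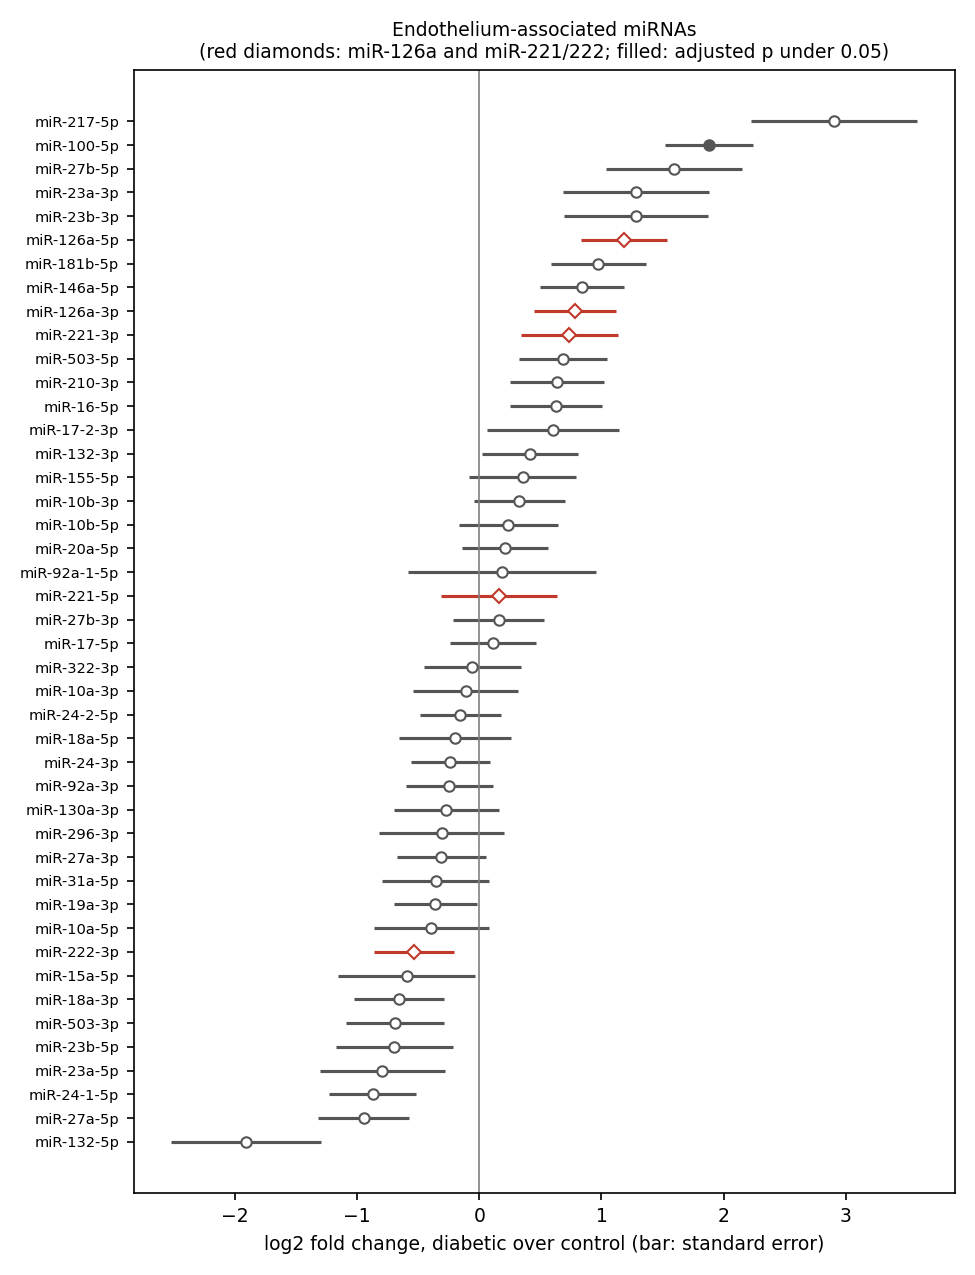
Log2 fold change, diabetic over control (horizontal axis, bars for standard error), of the 44 tested miRNAs of the endothelium-associated list, ordered by value, with red diamonds for the 5 miRNAs described here. miR-126a-5p (1.19), miR-126a-3p (0.78) and miR-221-3p (0.74) lie in the upper part, miR-221-5p (0.16) in the middle and miR-222-3p (-0.54) among the lower ones, and miR-100-5p is the 1 filled point.

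Summed lists of endothelium-associated miRNAs and of some other possible sources were also higher in diabetic libraries on the scale of plain counts. The 18 platelet-list miRNAs other than the members summed to 6.14% to 6.78% of counts in diabetic and 3.49% to 4.95% in control libraries. The 12 leukocyte-list miRNAs summed to 1.43% to 1.88% and 0.566% to 1.14%, and the 8 of smooth muscle and fibroblasts to 3.81% to 6.96% and 1.56% to 2.16%, in the same order of groups. The 60 endothelium-associated entries other than the members summed to 6.67% to 8.60% in diabetic and 4.72% to 5.95% in control libraries. These 4 sums did not overlap between the groups, and on this scale 32.6% of all tested miRNAs were separated with the diabetic libraries higher. The mean log2 normalized CPM of the tested entries, a different measure scaled by TMM, overlapped between the groups for each of these 4 lists. The lists share entries, such as miR-24-3p (endothelium and platelet), miR-223 (platelet and leukocyte) and miR-199a (platelet and smooth muscle), so the sums are not independent. In the smooth muscle and fibroblast list miR-143-3p was by far the largest entry, at means of 44891 normalized CPM in diabetic and 21359 in control libraries. The next, miR-145-5p, had 554 and 174. The 9 erythrocyte miRNAs (5.14% to 8.87% in diabetic, 7.04% to 18.3% in control libraries), the 6 of liver (5.78% to 8.59% and 3.15% to 21.0%) and the 15 of heart and skeletal muscle (0.312% to 1.70% and 0.1% to 1.11%) overlapped. Every platelet, leukocyte, erythrocyte and liver entry had at least 1 count. With TMM the medians were 0.10 for platelet, 0.29 for leukocyte, 1.07 for smooth muscle and fibroblast, -0.21 for erythrocyte, -1.04 for liver and -0.09 for heart and skeletal muscle miRNAs, with 0 calls by edgeR in any of these lists, against 1.66% of all miRNAs. At an unadjusted p under 0.05 there were 3 of 15 tested platelet miRNAs, 2 of 10 leukocyte, 4 of 7 smooth muscle and fibroblast, 3 of 8 erythrocyte, 2 of 6 liver and 0 of 7 heart and skeletal muscle miRNAs, against 22.7% of all. The part of these sources in the members' values was not tested.

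The miRNAs with the most similar profiles were found by the root mean square (RMS) difference of log2 normalized CPM over the 6 libraries, each profile centred on its own mean, among tested miRNAs averaging at least 10 normalized CPM. For miR-126a-5p these were miR-143-3p (0.199), miR-143-5p (0.224) and miR-146a-5p (0.243), where the median over 246 candidates was 0.758. Its own partner arm, miR-126a-3p, was the 8th most alike at 0.288. miR-143 is a hairpin of vascular smooth muscle, and miR-146a is induced in inflammation. For miR-126a-3p the most similar were miR-499-5p (0.167), miR-542-3p (0.177) and again miR-146a-5p (0.185). miR-499-5p, the closest, is an entry of the heart and skeletal muscle list.

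For miR-221-3p the closest profiles were let-7g-5p (0.174), miR-186-5p (0.232) and miR-30b-3p (0.235), and miR-222-3p was the 137th of 246 at 0.76. For miR-222-3p they were miR-29b-3p (0.0889), miR-3068-3p (0.104) and miR-19a-3p (0.222). The profile of miR-222-3p was thus farther from that of its cluster neighbour and seed partner than the median candidate was, at 0.628. For the sparse and flat miR-221-5p the closest were miR-3559-5p (0.175), miR-106b-5p (0.179) and miR-532-3p (0.184), which barely differ from its own spread of 0.192 around its mean.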

How the data were processed

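Small RNA libraries of plasma vesicles were analysed, 3 libraries for the diabetic and 3 for the control group, grouped by sample title. The number of animals is not given in the sources used here. The authors deposited whole-number counts per mature miRNA in 2 tables, identical in all 4584 cells. The second also holds the authors' CPM (recomputed from the counts within 0.006 in all 4584 cells), mean CPM, the log2 ratio of those means and p-values with false discovery rates. Its name gives edgeR as the test, while the series text names DEGseq. Per the submitters' processing notes the build was rn6. The aligner, the counting tool and the handling of multiply matching reads are not given in the sources used here.

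The deposited counts were filtered with filterByExpr (minimum count 10, minimum total 15), which kept 362 of 764 miRNAs, scaled by TMM and tested, diabetic over control, by quasi-likelihood F-test (edgeR 4.0.16, limma 3.58.1, DESeq2 1.42.0, R 4.3.3), with Benjamini-Hochberg adjustment over the 362. The fit was also run on simulated counts with large changes and a small, uniform spread. That run checks the code and does not measure power or error at the spread of these libraries. Standard errors are |log2 fold change| / √F. Ratios used a pseudocount of 0.5 and exact permutation tests (SciPy 1.17.1). The labels do not state separate animals, so p-values reflect only the spread of these samples, possibly a technical one. No library was a copy of another (chi-square per degree of freedom of at least 795.8 within groups). Intervals and limits from 3 counts cover counting error only, since PCR copies cannot be told from molecules.

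The members, the lists and the tests were chosen with earlier results of these data known. The miRNAs named were the 5 members, in the endothelium-associated list the called ones and those with the 3 smallest p, and for each member the 3 with the smallest RMS difference. Alternatives were other scalings, filters and tests, a replicate block and leaving out each library.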

Additional observations from a re-analysis of the deposited data

How the results depend on the processing

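Of the 5 miRNAs, 0 were called with TMM in the quasi-likelihood test of edgeR, 2 with library size only, 1 with DESeq2 and 1 with the replicate block, and 0 to 1 when a library was left out. Over all miRNAs 6 were called, against 49 with library size only (45 higher, 4 lower), 2 with upper quartile factors, 42 with DESeq2, 27 with edgeR's exact test, 57 with the replicate block, and 0 to 49 when a library was left out, with 49 without control replicate 1, 22 without diabetic replicate 3 and 0 without any of the other 4, where 57 to 59 had an unadjusted p under 0.05. The log2 fold change of miR-126a-5p, 1.19 with TMM, was called at 1.78 with library size only, 1.15 with DESeq2 and 1.16 with the replicate block, and ran from 0.98 to 1.39 when a library was left out (adjusted p 0.0486 to 0.317). That of miR-126a-3p, 0.78, was called at 1.38 with library size only and ran from 0.60 to 0.97. That of miR-221-3p, 0.74, ran from 0.49 to 1.19. Changes of sign were seen for 2 values, neither of them called: miR-221-5p to -0.15 with upper quartile factors (0.0050 to 0.29 with a library left out) and miR-222-3p to 0.0071 with library size only (-0.68 to -0.45). The causes were not tested.

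Same-numbered libraries are not stated to be paired, so the replicate block was kept as an alternative. Their deviations from the group means correlated at 0.252, 0.0232 and 0.256 for numbers 1, 2 and 3. Between libraries of different number the correlations ran from -0.403 to 0.0838. Diabetic replicates 1 and 3 correlated best with the same-numbered control, and diabetic replicate 2 with control replicate 3 (0.0454). Whether the numbers pair the libraries cannot be decided from these values. The adjusted p of miR-126a-5p with the block was 0.0419 (0.0137 to 0.317 over all alternatives). The block leaves the mean ratio differences as they are. The ratios kept their direction with pseudocounts of 0 and 5 and with each library left out, at 0.21 to 0.56 for the miR-126a arms, -1.03 to -0.53 for the miR-221 arms, -1.69 to -1.17 for miR-222-3p over miR-221-3p and 0.13 to 0.67 for miR-126a over miR-221 and miR-222. For miR-222-3p over miR-221-3p, whose groups did not overlap, leaving out a library could not have changed the direction.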
